A study of Mus musculus with 4 samples.

Results

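The mitochondrial ribosome is built from proteins encoded in the nucleus, and the genes of these proteins are described here in sections of the mouse brain. The family was taken as all gene symbols of the deposited feature list that start with Mrpl or Mrps followed by a digit. Mrps6 and Mrpl39 were set aside because both lie in the chromosome 16 segment that Dp16 mice carry in an extra copy. This left 76 genes of 19090, 48 with an Mrpl and 28 with an Mrps symbol. The rule itself uses symbols and no measured value. All 76 had a mean level of at least 5 CPM, as did 11033 genes in all. CPM stands for UMIs per 1000000 UMIs of a section.

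The study placed brain sections of 4 male mice aged 9 months on Visium slides, on which poly(A) RNA is captured in barcoded spots and counted by unique molecular identifiers (UMIs). One mouse was wild-type C57BL/6J. One was Dp16, a mouse with a duplicated segment of chromosome 16 that is used as a model of trisomy 21, and one was 5xFAD, a strain whose transgenes carry familial Alzheimer's disease mutations and which forms amyloid plaques. The fourth mouse, 5xFAD-Dp16, carried both. Hemispheres between 1 and −2 mm from bregma were cut at 10 µm. The sections held 2347 to 2941 spots and 26049860 to 36461389 UMIs, and the median spot had 9404 to 11639 UMIs. Of 3164 distinct spot barcodes, 2879 occurred in more than 1 section, since barcodes name positions on the slide and not cells. The deposited annotation gives each spot a region label, and in the sections with the 5xFAD transgenes it also marks plaque spots and their neighbours.

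Where 4 values are listed for the sections, the order is always wild-type first, then Dp16, then 5xFAD, with 5xFAD-Dp16 last. With 1 mouse per genotype, the genotype cannot be told apart from the mouse, the section plane or the library. No p-value is given for a genotype or for plaque spots. Intervals there cover counting error only, except that of a median over members, which reflects the spread among genes. A spot covers several cells, so fewer cells of a type and less RNA per cell cannot be told apart.

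Mitochondrial ribosomes translate the few messenger RNAs of the mitochondrial genome, all of which encode subunits of the respiratory chain and ATP synthase. Their proteins are made in the cytosol and imported. Many are relatives of bacterial ribosomal proteins, and others are found only in mitochondria. Of the 76 genes, 30 encode large-subunit proteins of bacterial type, 20 large-subunit proteins specific to mitochondria, 15 small-subunit proteins of bacterial type and 10 small-subunit proteins specific to mitochondria. Despite their symbols, Mrps30 and Mrps18a belong to the large subunit. Mrps36 is counted in neither subunit, because its protein is a component of the oxoglutarate dehydrogenase complex.

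Mrpl46 and Mrps11 are neighbours on chromosome 7 (GRCm38.p6, RefSeq), and their annotated spans are separated by 41 bases. RefSeq promoter windows, reaching from 250 bases before to 50 bases after the start, were at hand for 67 of the 76 genes. CCGGAAG, a core that GABP and other ETS factors bind, stood on either strand in 26 of these genes, or 38.8%, against 20.2% of 8603 coding genes of at least 5 CPM. AAGATGGCG, a YY1 core, stood in 8 genes (11.9% against 3.86%), and GCATGCGC, an NRF1 core, in 7 (10.4% against 6.29%). The GC box GGGCGG went the other way, in 33 genes or 49.3% against 71.5%, and CCAAT stood in 26, or 38.8% against 43.0%. Over all 32851 windows of the table the shares were 8.86% for the ETS core, 1.40% for YY1, 2.71% for NRF1, 35.7% for the GC box and 37.4% for CCAAT. Such matches describe the letters only and show no binding. The 200 bases before the start are shown for 3 genes that were among the family's highest in both Dp16 comparisons below, were given a single window, and hold an ETS or NRF1 core there. Mrps24, Mrpl42, Mrpl28, Mrps36 and Mrpl21, also among the highest and with a single window, hold neither core in those 200 bases. The choice of the 3 thus shows no link between the cores and the Dp16 comparisons. The bases shown run 5′ to 3′ on the gene's strand, and capitals mark every match of these motifs on either strand. They lie at chr17:46110804-46111003 (plus strand) for Mrps18a, chr9:98601680-98601879 (minus strand) for Mrps22 and chr13:14613038-14613237 (minus strand) for Mrpl32.
Mrps18a: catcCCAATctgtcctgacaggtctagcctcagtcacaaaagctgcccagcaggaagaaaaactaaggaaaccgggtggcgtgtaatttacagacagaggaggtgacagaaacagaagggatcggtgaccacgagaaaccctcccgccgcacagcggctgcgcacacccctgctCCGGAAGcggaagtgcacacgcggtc
Mrps22: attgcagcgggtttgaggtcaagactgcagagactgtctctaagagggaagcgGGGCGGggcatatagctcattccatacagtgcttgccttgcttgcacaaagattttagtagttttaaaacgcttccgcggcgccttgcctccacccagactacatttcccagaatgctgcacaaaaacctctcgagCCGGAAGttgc
Mrpl32: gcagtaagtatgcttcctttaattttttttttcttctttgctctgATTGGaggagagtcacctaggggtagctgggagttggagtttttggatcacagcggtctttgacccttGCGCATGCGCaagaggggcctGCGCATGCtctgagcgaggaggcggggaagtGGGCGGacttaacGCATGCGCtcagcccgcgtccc
The ETS core begins 26 bases before the start of Mrps18a and 11 bases before that of Mrps22. Mrpl32 has NRF1 cores that begin 85 and 22 bases before the start, and others on the opposite strand at 87 and 66, the outermost pair overlapping in a palindrome.

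The members spanned a wide range of levels. Mean levels over the 4 sections ran from 15.8 CPM for Mrpl1, a protein of the stalk at the ribosome's exit site, to 299 CPM for Mrps33, with a median of 74.4. Mrps33, a small-subunit protein without a bacterial relative, had 279, 294, 284 and 337 CPM in the 4 sections. Mrps21 followed with 247, 274, 266 and 281 CPM, and Mrpl20 with 228, 238, 220 and 248 CPM. These 3 were the most abundant members in each section, in this order. Below them came Mrpl52 at a mean of 211 CPM, Mrpl30 at 186, Mrpl33 and Mrpl42 at 178, Mrpl12 and Mrpl23 at 166, and Mrps36 at 160. Mrpl12 forms part of the factor-binding stalk and Mrpl23 lines the rim of the exit tunnel. The 5 lowest were Mrps2 (24.6), Mrpl47 (24.3), Mrps27 (22.3), Mrps31 (20.5) and Mrpl1. A 3′ tag assay gives 1 UMI per captured molecule whatever the transcript's length, but capture differs between transcripts, so this order is of captured molecules. Even the scarcest member in the shallowest case, Mrpl1 in Dp16, was counted 424 times, and Mrps33 in 5xFAD-Dp16 12293 times.

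**Figure D1:**
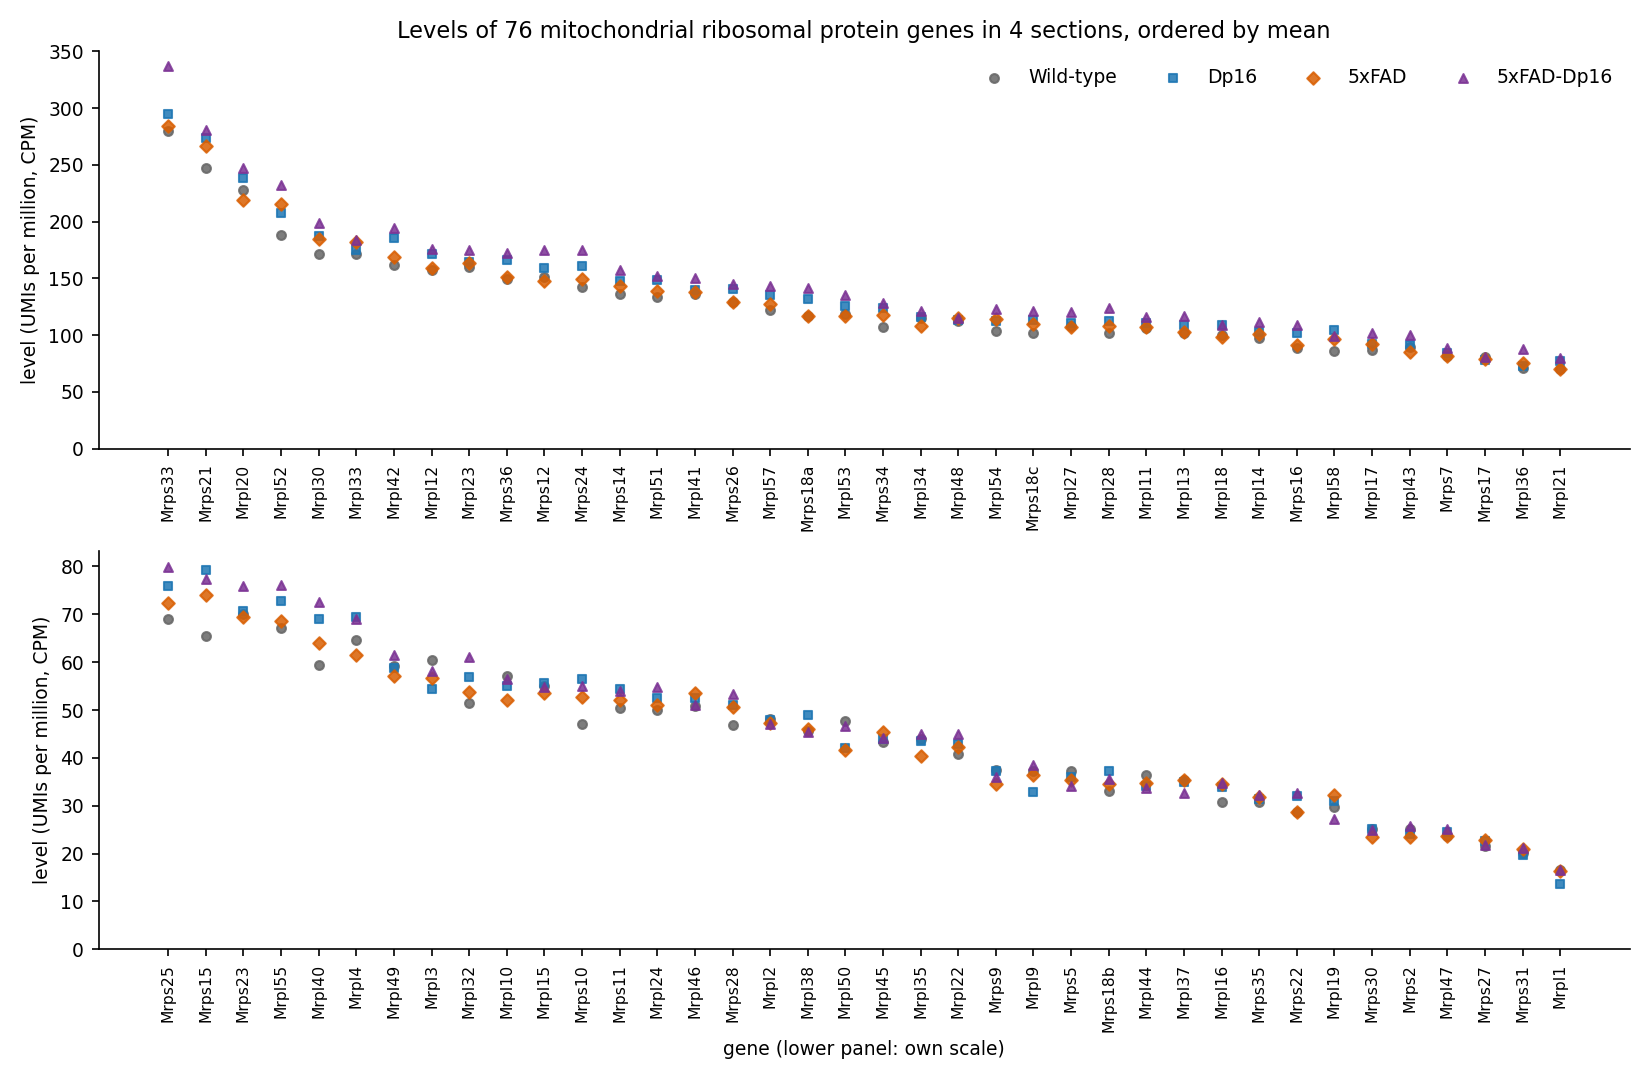
Level in CPM (vertical axes, linear, from 0, each panel with its own scale) of the 76 genes in each of the 4 sections, ordered by mean level. Each point is 1 gene in 1 section, and most triangles (5xFAD-Dp16) lie above the other points of the more abundant genes.

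Summed over the family, the level was 6576, 7017, 6739 and 7388 CPM, or 0.658, 0.702, 0.674 and 0.739% of all UMIs. Both sections with the duplication were above both without it. The order was the same when the mitochondrially encoded mRNAs, 14 to 15% of UMIs, were taken out of the total: 7687, 8260, 7834 and 8622 CPM. The ratio of UMIs of Mrpl to Mrps genes was steady, at 1.72, 1.67, 1.70 and 1.66. UMIs of nuclear respiratory chain genes per UMI of the family ranged from 7.69 to 8.02 over the sections.

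To compare sections gene by gene, a log2 ratio of CPM was taken and the median ratio of all 11033 genes was subtracted. That median was −0.13 for Dp16 against wild-type and −0.07 for 5xFAD-Dp16 against 5xFAD. For the transgenes it was −0.08 in 5xFAD against wild-type and −0.03 in 5xFAD-Dp16 against Dp16. A value of 0 thus means the section's typical gene, and values below are on this relative scale unless called CPM. The first pair of comparisons differs by the duplication and shares no section, and neither does the second pair, which differs by the 5xFAD transgenes. The comparisons of the duplication do share sections with comparisons of the transgenes.

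With the duplication, nearly the whole family lay above the typical gene, by a small amount. The median member was at 0.21 for Dp16 against wild-type, with quartiles 0.15 and 0.28, and 72 of 76 members were above 0. For 5xFAD-Dp16 against 5xFAD the median was 0.19, with quartiles 0.12 and 0.24, and 74 of 76 were above 0. All genes had quartiles of −0.14 and 0.16 in the first comparison and −0.12 and 0.13 in the second. In both comparisons together 70 members were above 0, where 32.3% of all genes were, and none was below 0 in both, where again 32.3% of all genes were. All 28 Mrps genes and 42 of the 48 Mrpl genes made up the 70. The medians correspond to 1.15-fold and 1.14-fold above the typical gene. In plain CPM, the summed family was 1.07-fold and 1.1-fold higher. Without subtracting the median of all genes, the medians were 0.076 and 0.12, with 55 members above 0 in both and 4 below. On that scale the typical gene was at −0.13 and −0.07, and the shares of all genes above and below 0 were not computed.

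Few members reached a relative log2 ratio of 0.32, the size used for calls here. For Dp16 against wild-type 7 members did, against 9.45% of all genes, and none was lower by as much (7.2% of all genes). They were Mrps15, Mrpl58, Mrps10, Mrpl40, Mrps34, Mrpl42 and Mrps16. For 5xFAD-Dp16 against 5xFAD 2 members did, Mrps18a and Mrps16, against 4.3% of all genes, and none was lower (3.9%). Only Mrps16 passed in both, against 1.66% of all genes, and none was lower in both (0.752%). Mrps16 lay just past the size, and 0 members passed in both with TMM scaling, without centring, with totals that leave out mitochondrial, ribosomal protein and haemoglobin genes and Ttr, with common region weights or with a gene filter of 1 or 20 CPM. At 1.1-fold the count differed from the background: 45 of 76 members passed in both comparisons, and 12.3% of all genes. The family was thus displaced as a group, with few of its members standing far out.

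Mrps16, a small-subunit protein of bacterial type, had 88.9, 102, 91.1 and 109 CPM in the 4 sections. Its relative ratio was 0.33 in both comparisons, with counting intervals of 0.25 to 0.40 and 0.26 to 0.41. Mrps18a followed, with 117, 132, 117 and 142 CPM and ratios of 0.31 and 0.35. For both genes the 2 sections with the duplication were above the 2 without it. Mrps24, which lines the channel where mRNA enters the small subunit, had 142, 161, 150 and 175 CPM and ratios of 0.31 and 0.30. Mrpl42 had 161, 185, 169 and 195 CPM and ratios of 0.33 and 0.28, Mrpl28 ratios of 0.27 and 0.27, and Mrps22 ratios of 0.29 and 0.27. Mrpl40, which lies on chromosome 16 at 18872018-18876637 outside the duplicated segment, was at 0.35 and 0.25. Mrps34, Mrpl12 and Mrps36 were at 0.34 and 0.20, 0.26 and 0.22, and 0.28 and 0.26. Mrps12, a protein of the decoding centre, was at 0.21 and 0.31.

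At the other end, Mrpl44, a large-subunit protein with a ribonuclease III fold, had 36.3, 34.1, 34.7 and 33.8 CPM. Its ratios were 0.04 and 0.04, with intervals that included 0, and its wild-type level was the highest of the 4. Mrps5 (0.09 and 0.02), Mrps17 (0.08 and 0.10), Mrpl37 (0.11 and −0.03), Mrpl3 (−0.02 and 0.11) and Mrpl1 (−0.14 and 0.08) were the other members whose larger ratio was lowest. Mrps30 was at 0.13 and 0.16. For scale, the duplicated genes that were left out lay far above the family: Mrps6 was at 1.12 and 0.92 and Mrpl39 at 0.75 and 0.89.

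**Figure D2:**
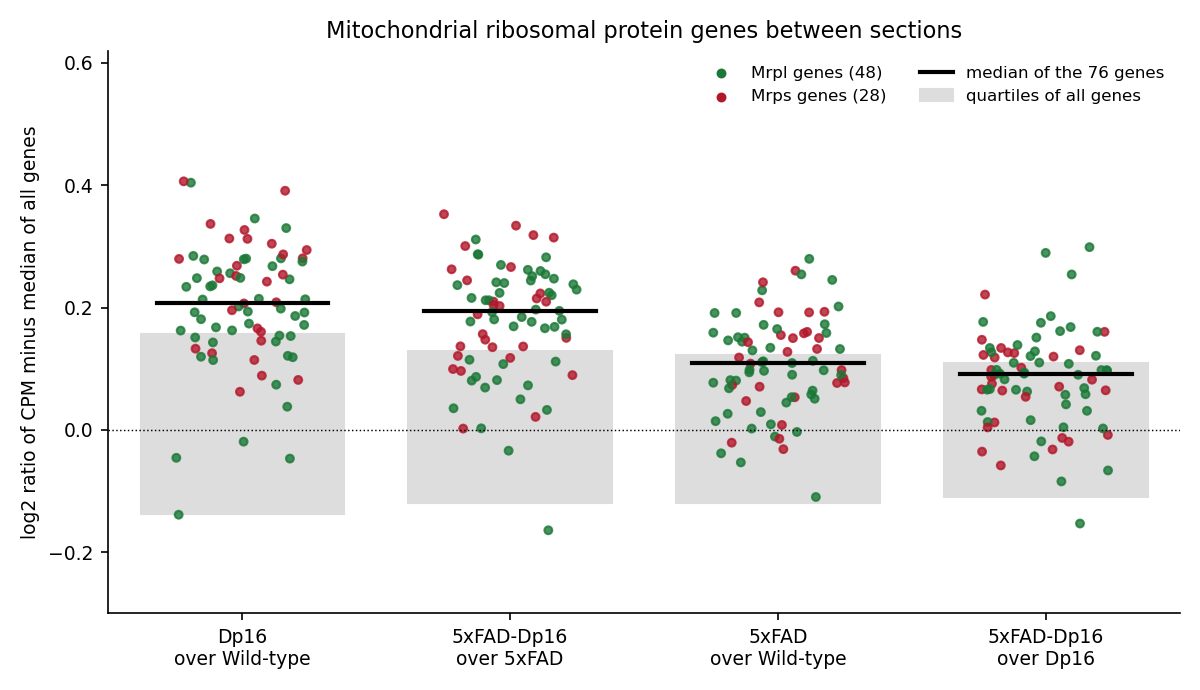
Relative log2 ratio (vertical axis, log2 ratio of CPM minus the median of all genes) of each of the 76 genes in the 4 comparisons of sections, with Mrpl genes in green, Mrps genes in red, the family's median as a black line and the quartiles of all 11033 genes as a grey box. The black lines lie at 0.21, 0.19, 0.11 and 0.09, above the upper quartile of all genes in the 2 comparisons on the left and inside the box in the 2 on the right.

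The shift was larger among abundant members. The 38 members from 74.5 to 299 CPM had medians of 0.25 and 0.23 in the comparisons of the duplication, and the 38 from 15.8 to 74.3 CPM had 0.17 and 0.14. Other genes of the upper range, 1620 in number, had medians of 0.04 and 0.05, and 5203 of the lower range −0.01 and −0.01. Across the 76 genes, log2 level and ratio had a Pearson r of 0.45 and 0.54, and the ratios of the 2 comparisons had an r of 0.31 with each other. These describe genes of the same libraries and are not tests. Levels were estimated from the same counts as the ratios.

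Class within the ribosome made little difference. Medians in the comparisons of the duplication were 0.19 and 0.20 for large-subunit proteins of bacterial type, 0.20 and 0.18 for large-subunit proteins specific to mitochondria, 0.25 and 0.15 for small-subunit proteins of bacterial type and 0.23 and 0.20 for those specific to mitochondria. Ribosomal proteins with other symbols (Aurkaip1, Chchd1, Gadd45gip1, Dap3 and Ptcd3) had medians of 0.22 and 0.23. Aurkaip1, the most abundant of them, was at 155, 178, 164 and 184 CPM.

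Genes that serve mitochondrial translation without being part of the ribosome lay lower. They were mostly scarcer too: 13 translation factors summed to 209 to 213 CPM over the sections, and 25 assembly genes to 499 to 516. The less abundant members of the family were themselves at 0.17 and 0.14, so role and level cannot be told apart here. The 10 translation factors tested, among them the elongation factors Tufm and Tsfm, had medians of 0.07 and 0.11, with 7 above 0 in both comparisons. The 24 genes of ribosome assembly and rRNA modification had 0.06 and 0.05, with 14 above 0 in both. The 18 mitochondrial aminoacyl-tRNA synthetases had 0.12 and −0.03, with 5 above 0 in both and 5 below. The 16 genes of mitochondrial transcription and RNA processing had 0.04 and 0.05, and 7 transcriptional regulators of mitochondrial biogenesis −0.12 and −0.08. None of the genes in these 5 lists, nor of the other ribosomal proteins, passed a log2 ratio of 0.32 in the same direction in both comparisons. The structural partners of the respiratory chain stood closer to the family: 77 nuclear respiratory chain genes had medians of 0.25 and 0.16, with 68 above 0 in both, and the 13 mitochondrial mRNAs 0.23 and 0.11, with 10 above 0 in both. The 77 cytosolic ribosomal protein genes tested had 0.26 and 0.11, with 67 above 0 in both.

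Markers of other tissue moved with these comparisons. The choroid plexus list of 9 genes summed to 6893, 32522, 19314 and 14741 CPM, so that its medians had opposite signs, 2.27 and −0.40. Blood markers were lower in both comparisons, with medians of −1.32 and −0.22 over 4 genes, and meningeal markers were at 1.54 and −0.29. Excitatory neuron markers were at −0.16 and −0.15 and oligodendrocyte markers at −0.24 and −0.08. When the spots labelled VL, the region where choroid markers were densest, were left out, the family's medians were 0.20 and 0.21. Again 70 members were above 0 in both, and the share of all genes was not computed there. Choroid markers still differed outside VL: wild-type and Dp16 had 108 and 47795 CPM in Cortex CTXsp, and 5298 and 612 in Cortex AUC. Mrpl58, a peptidyl-tRNA hydrolase of the large subunit that is richest in VL, went from 0.40 to 0.28 for Dp16 against wild-type, whereas Mrps15 went from 0.41 to 0.40. The part of the choroid markers left outside VL, and of the other markers, in the result was not tested.

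The shift was seen region by region. Of 12 regions with at least 30 spots in every section, the family's median was above the region's typical gene in 11 for Dp16 against wild-type, from −0.05 in CNU to 0.29 in the Thalamus. It was above in each of the 12 in the other duplication comparison, from 0.03 in VL to 0.34 in the region Cortex RSP, IL. The summed level in Cortex RSP, IL was 6343, 7512, 6239 and 7964 CPM in the 4 sections. In the Hippocampus the sums were 7001, 7568, 7308 and 7322 CPM, and the sections with the transgenes differed by less than their counting intervals. The regions of a comparison come from the same sections and do not repeat the genotype. Wild-type and Dp16 had 1862 and 21433 CPM of choroid plexus markers in CNU, and 142249 and 246334 in VL. In VL, 5xFAD and 5xFAD-Dp16 had 257981 and 222585. The part of these markers in the regional values was not tested.

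With the 5xFAD transgenes the family's medians were smaller. The median was 0.11 for 5xFAD against wild-type, with 68 of 76 members above 0. It was 0.09 for 5xFAD-Dp16 against Dp16, with 65 above. In both comparisons 58 members were above 0 and only Mrps9 was below, and 28.9% of all genes fell on each side. Without subtracting the median of all genes, the medians were 0.026 and 0.065, with 38 members above 0 in both and 8 below. On that scale the typical gene was at −0.08 and −0.03, and the shares of all genes were not computed. No member reached a log2 ratio of 0.32 in either direction in either comparison. The background was 6.66% of all genes higher and 5.08% lower for the first of these, 3.78% and 4.24% for the second, and 1.15% and 0.444% in both. At 1.1-fold 6 members passed in both, against 6.24% of all genes, a share near the background.

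Those 6 were Mrpl52, Mrpl36, Mrpl28, Mrpl54, Mrpl17 and Mrps24. Mrpl52 had 188, 208, 216 and 232 CPM, with ratios of 0.28 and 0.19. Mrpl36, of bacterial type, had 71.2, 72.7, 75.7 and 87.8 CPM, with ratios of 0.17 and 0.30. Mrpl54 was at 0.23 and 0.16, Mrpl17, which sits at the tunnel exit, at 0.16 and 0.18, Mrpl28 at 0.16 and 0.17, and Mrps24 at 0.16 and 0.15. Mrpl52 was the highest of the 6 in level, and both of its sections with the transgenes were above both without them. The lowest were Mrps9 at −0.03 and −0.02, Mrps30 at −0.02 and 0.00, Mrps5 at 0.01 and −0.06, Mrpl44 at 0.01 and 0.01, Mrpl4 at 0.01 and 0.02 and Mrpl15 at 0.04 and 0.00. Mrpl44 and Mrps5 were also among the lowest for the duplication. The comparisons of the duplication and of the transgenes share sections, so this overlap is not a result.

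Beside this, the 14 microglial markers had medians of 0.55 and 0.65 with the transgenes, and their sum was 612, 514, 1062 and 963 CPM. Cytosolic ribosomal protein genes were at 0.27 and 0.15, with 69 of 77 above 0 in both, and nuclear respiratory chain genes at 0.13 and 0.04, with 57 of 77. Choroid plexus markers again had opposite signs, 1.41 and −1.0. Without VL spots the family's medians were 0.10 and 0.10, with 57 members above 0 in both. The share of all genes was not computed there. What the microglial share and the choroid markers left outside VL add to the family was not tested. Across the 76 genes the ratios of the 2 comparisons had a Pearson r of −0.03, which describes genes and carries no test. By region, the family's median was above 0 in 11 of the 12 without the duplication, from −0.17 in CNU to 0.31 in VL. With the duplication it was above 0 in 10 of the 12, from −0.06 in VL to 0.28 in Cortex CTXsp. Choroid plexus markers differed in these regions. Wild-type and 5xFAD had 1862 and 74981 CPM in CNU, with 30 spots in 5xFAD, and 142249 and 257981 in VL. In Cortex CTXsp, Dp16 had 47795 and 5xFAD-Dp16 9431. Their part in the regional values was not tested.

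Between regions the 4 sections served as replicates. The summed level was highest in Cortex PTL, at 7436 ± 526 CPM (mean ± SD, n = 4 sections), the Hypothalamus, at 7421 ± 249, and the Hippocampus, at 7300 ± 232. Cortex SSp (7215 ± 274), Cortex AUC (7200 ± 406), Cortex RSP, IL (7015 ± 857), Cortex CTXsp (6919 ± 441), Cortex OLF (6857 ± 655) and CNU (6752 ± 475) followed, each within 1 SD of the next. The Thalamus had 6559 ± 374, VL 6330 ± 210 and FB 6016 ± 332. FB was the lowest of the 12 in every section, at 5774, 6429, 5723 and 6139 CPM. FB was also, in every section, where oligodendrocyte markers were most abundant, at 22064 to 29370 CPM, and 10.3 to 11.3% of its UMIs were mitochondrial mRNAs. With mitochondrial mRNAs taken out of the total, FB (6741) and VL (6795) were again lowest and the Hypothalamus (8746) was first. Choroid plexus markers, at 142249 to 257981 CPM in VL, stayed in that total, and their part in VL's rank was not tested. In the fit described next, which scales by TMM factors, the median member in VL was at −0.04, against 0.02 for all genes.

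**Figure D3:**
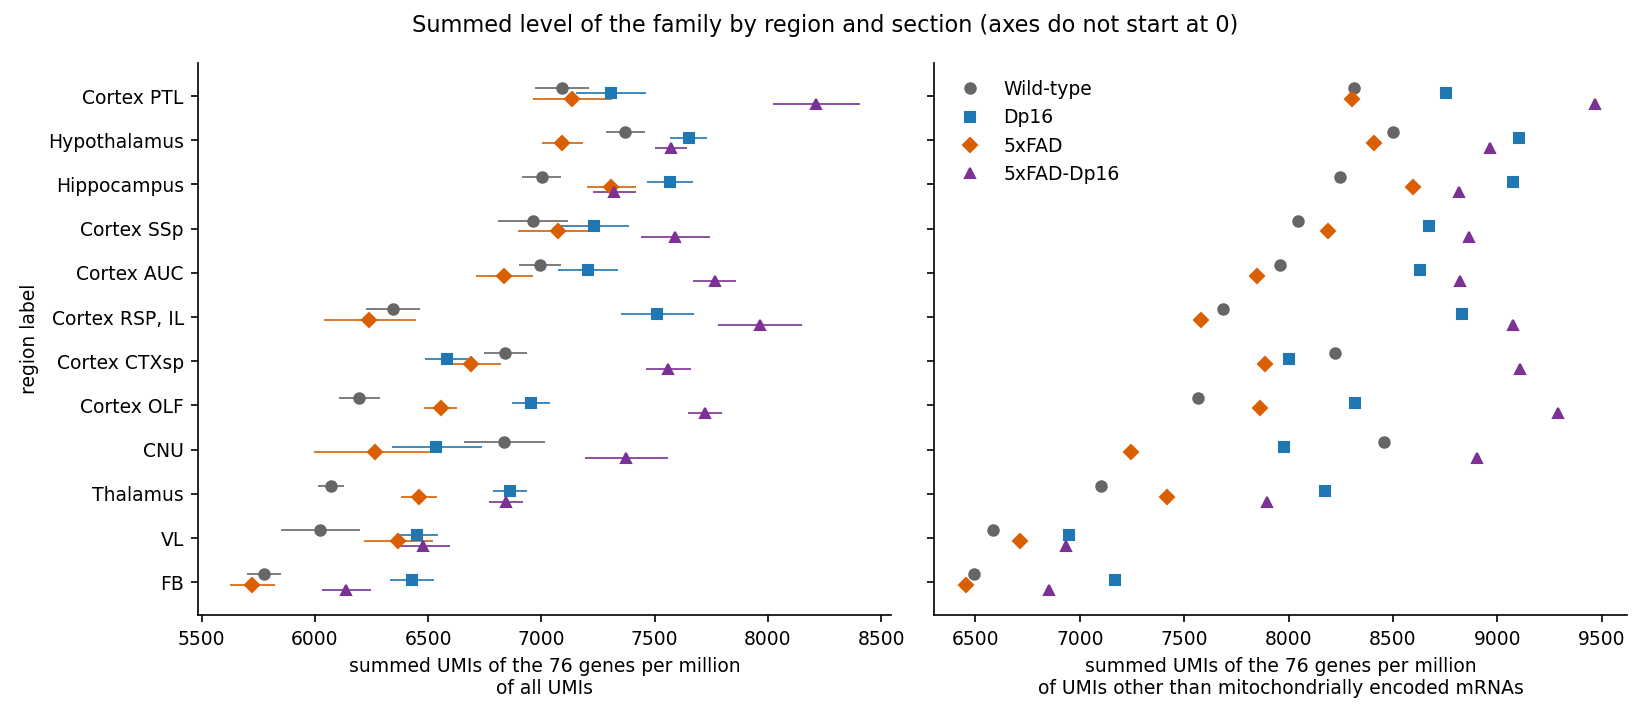
Summed level of the 76 genes in each region and section, in CPM of all UMIs with exact Poisson 95% intervals (left) and in CPM of UMIs other than mitochondrially encoded mRNAs (right), on linear axes that do not start at 0. FB is lowest in all 4 sections on the left, and triangles (5xFAD-Dp16) lie furthest right in the 6 cortical regions.

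Single members were tested with edgeR's quasi-likelihood test on the UMI sums per section and region, with the section as a block, each region against the mean of the other 11. P-values were adjusted by Benjamini-Hochberg over 13167 genes, and calls are at 0.05. There were 113 calls of a member higher in a region and 130 lower, and 74 of the 76 members were called at least once. The exceptions, Mrpl1 and Mrps2, are among the 5 least abundant. In single regions 9.31 to 31% of all genes were called higher and 5.92 to 26.5% lower. The share of all genes called at least once was not computed, so 74 of 76 is no trait of the family. With the 5xFAD-Dp16 section left out the calls were 78 and 85. The error here is how much a region's values vary over the sections once each section's own level is taken out. Each section holds 1 mouse of 1 genotype, so the sections are not replicates of 1 condition.

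In the Hypothalamus 35 members were higher (24.1% of all genes) and 4 lower (22.1% of all genes), with a median log2 fold change of 0.17 against −0.01 for all genes. Mrps15, a small-subunit protein of bacterial type, had 82.6, 99.4, 103 and 103 CPM there, and 64.0, 74.2, 68.5 and 73.1 CPM on average in the other regions. It was higher in 4 of 4 sections, with a log2 fold change of 0.49 (edgeR quasi-likelihood test, Benjamini-Hochberg adjusted p = 6.58e-09). Mrps10 (0.46), Mrps22 (0.41) and Mrpl54 (0.40) were next. Mrps33, the most abundant member, went against the family and was lower in the Hypothalamus (−0.27, edgeR adjusted p = 0.000314).

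In FB, 42 members were lower (26% of all genes) and 2 higher (28.9% of all genes), with a median of −0.22 against 0.00 for all genes. Mrpl16 had 21.8, 25.1, 24.2 and 21.6 CPM in FB, against 31.0, 35.1, 34.9 and 35.2 in the other regions (log2 fold change −0.53, edgeR adjusted p = 1.15e-06). Mrps12 (−0.52) and Mrpl45 (−0.50), which sits at the tunnel exit facing the inner membrane, were lower by as much. The 2 higher members were Mrpl24 and Mrpl17, both near the tunnel exit of the large subunit. Mrpl24 had 67.4, 73.0, 69.9 and 68.3 CPM in FB and 49.0, 49.7, 50.9 and 54.1 elsewhere, a log2 fold change of 0.47 (edgeR adjusted p = 2.56e-07), and Mrpl17 was at 0.30. Mrpl24 in FB was above the average of the other regions in all 4 sections. Over the sections, the range in FB did not overlap the range of those averages.

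The Thalamus also had more lower calls than its background: 33 members were lower (23.7% of all genes) and 1, Mrps27, was higher (24.1% of all genes). The median was −0.16, against −0.02 for all genes. Mrpl33 had 108, 133, 137 and 139 CPM there, and 183 to 190 CPM on average elsewhere, which is a log2 fold change of −0.65 (edgeR adjusted p = 6.57e-09). Mrpl57 (−0.55), Mrps33 (−0.50) and Mrpl53 (−0.49) followed. Mrps27, a pentatricopeptide repeat protein of the small subunit, was at 0.29 (edgeR adjusted p = 0.0262).

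VL, the region with choroid plexus markers at 142249 to 257981 CPM, split the family. There 20 members were higher (31% of all genes) and 14 lower (26.5% of all genes), so its calls were no more frequent than for genes in general. Mrpl58 stood out with 127, 185, 181 and 200 CPM, against 86.6 to 96.8 elsewhere. Its log2 fold change of 1.17 (edgeR adjusted p = 7.14e-17) was the largest of any member in any region. Mrpl51, Mrpl57 and Mrpl34 were at 0.55, 0.55 and 0.54 on the scale of the fit, which uses TMM factors. Their levels in CPM differed by less: Mrpl51 had 166 to 182 in VL against 134 to 149 elsewhere, and Mrpl34 128 to 150 against 106 to 120. The same holds for Mrpl58, and the cause of the gap was not tested. Mrpl19 (−0.64), Mrps22 (−0.61) and Mrps5 (−0.57) were lowest. VL had only 40 to 102 spots per section. The duplicated Mrps6, which is not counted, was at 1.98 in VL.

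In the Hippocampus 15 members were higher (17.3% of all genes) and 3 lower (15% of all genes). Mrps33 had 406, 424, 410 and 430 CPM there, against 282, 295, 275 and 349 elsewhere, a log2 fold change of 0.51 (edgeR adjusted p = 9.49e-10). Mrps33 thus had its highest value in the Hippocampus and was lower in the Thalamus and Hypothalamus. Mrps18c (0.39), Mrps9 (0.38) and Mrps26 (0.38) were next, and Mrpl40 was lowest at −0.27.

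Among the cortical regions, Cortex CTXsp had 12 members higher and 3 lower, where 14.2% and 9.41% of all genes were. Mrps25 was highest there (0.41) and Mrpl58 lowest (−0.38). Cortex OLF had 7 and 12 (20.6% and 16.8% of all genes), with Mrps25 (0.33) and Mrpl34 (−0.38) at the ends. Cortex PTL had 8 and 2 (12% and 7.81%), with Mrps35 at 0.45 and Mrpl10, which anchors the stalk, at −0.33. Cortex AUC had 2 and 5 (16.5% and 11.8%) and Cortex RSP, IL 1 and 6 (9.31% and 5.92%). In both, Mrpl52 was the lowest member, at −0.34. Mrps18b was the highest in Cortex AUC (0.25, edgeR adjusted p = 0.0868) and Mrps5 in Cortex RSP, IL (0.41, edgeR adjusted p = 0.0700), and neither passed. Cortex SSp had 4 and 4 (12.6% and 6.99%), with Mrpl48 at 0.33 and Mrpl35 at −0.39. In CNU 6 members were higher and 2 lower (10% and 7.85%). Mrpl52, low in those cortical regions, was highest in CNU, with 276, 263, 277 and 299 CPM against 182, 201, 211 and 225 elsewhere (0.56, edgeR adjusted p = 3.39e-08). Mrps27 had the lowest value in CNU, −0.44, on 6 to 17 UMIs per section, and did not pass (edgeR adjusted p = 0.180).

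**Figure D4:**
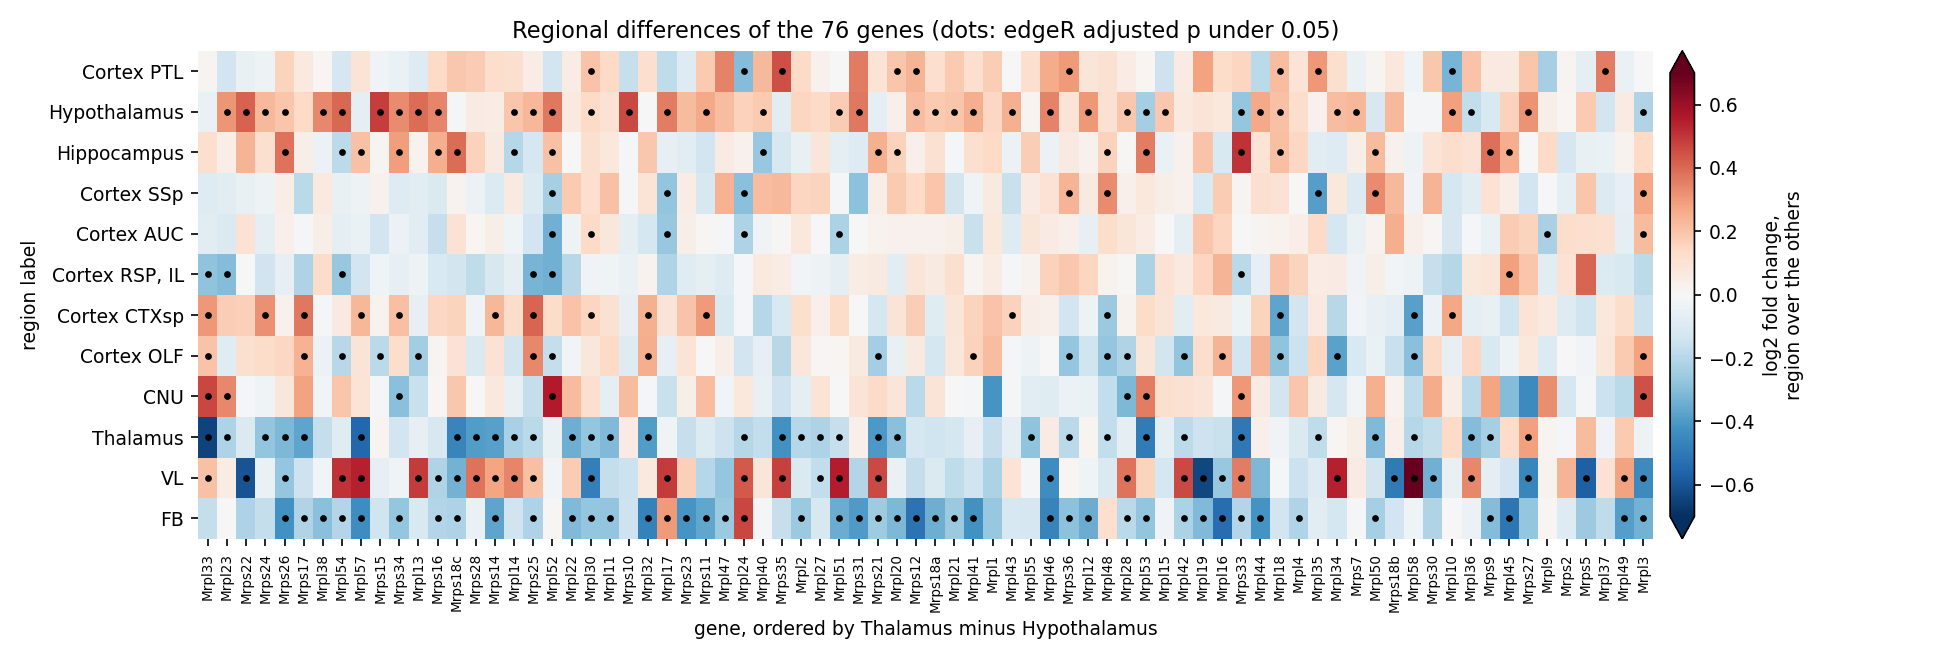
Log2 fold change of each of the 76 genes (columns, ordered by the Thalamus minus the Hypothalamus value) in each of 12 regions against the mean of the others (rows), red for higher and blue for lower, with colours saturating at 0.7 in either direction. Dots mark edgeR adjusted p under 0.05, and blue dots dominate in FB (42 lower, 2 higher) and the Thalamus (33 and 1) and red dots in the Hypothalamus (35 higher, 4 lower).

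How alike the members were was measured as the Pearson r, over the 12 regions, of a member's mean log2 CPM with the mean of the other members. It had a median of 0.62 over the 76 genes. Mrps12 (0.95), Mrpl2 (0.92), Mrpl46 (0.92), Mrps18a (0.91), Mrpl38 (0.90) and Mrpl11 (0.90) were most like the rest. Mrpl24 (−0.67), Mrpl17 (−0.45) and Mrpl58 (−0.44) ran against it, the first of them with its highest level in FB, where the family was lowest. Regions share sections and depth, and these values carry no test. The span between a member's highest and lowest region had a median of 0.63 on the log2 scale, from 0.35 for Mrpl43 to 1.24 for Mrps5. The highest region was the Hypothalamus for 22 members and Cortex PTL for 16, and the lowest was VL for 35 and FB for 17. These levels are in CPM of totals that include VL's choroid plexus markers.

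Plaque spots were compared with spots of the same section and region that carried neither a plaque nor a neighbour mark, with regions weighted by their share of plaque spots. The family barely differed between them. In 5xFAD, 310 plaque spots and 1234 unmarked spots of 10 regions gave summed levels of 6670 and 6596 CPM and a median relative ratio of 0.04, with 45 of 76 members above 0. In 5xFAD-Dp16, 380 and 1556 spots of 11 regions gave 7431 and 7272 CPM and a median of 0.02, with 42 above 0. The interval of the median over members ran from −0.01 to 0.09 in the first section and from −0.01 to 0.06 in the second. It reflects the spread among 76 genes of the same spots, which are not independent, and does not cover mice. Wild-type and Dp16 sections, weighted by region like the 5xFAD comparison, had 6572 and 7109 CPM.

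In both sections 28 members were above 0 and 17 below, where 29.9% of all genes fell on each side. Past a log2 ratio of 0.32, 5xFAD had 3 members higher (Mrpl37, Mrpl1 and Mrpl45, against 8.69% of all genes) and 1 lower (Mrpl14, against 12.3%). In 5xFAD-Dp16 no member was past it, higher (9.16% of all genes) or lower (12.1%), and none was past it in both (2.94% and 4.05%). Mrpl37 was at 0.47 in 5xFAD and −0.05 in 5xFAD-Dp16, and Mrpl1 at 0.40 and 0.00.

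The members highest in both sections were Mrps27, at 28.8 CPM in plaque spots and 23.8 in unmarked spots of 5xFAD and 25 and 20.8 in 5xFAD-Dp16, with relative ratios of 0.30 and 0.26. These rest on 96 and 114 UMIs in plaque spots. Mrpl49 (0.20 and 0.25), Mrps5 (0.17 and 0.24), Mrpl45 (0.35 and 0.17), Mrpl35 (0.15 and 0.15) and Mrpl42 (0.11 and 0.22) followed. Mrpl14 was lowest, with 83.4 CPM in plaque and 107 in unmarked spots of 5xFAD and 102 and 113 in 5xFAD-Dp16, at −0.34 and −0.14. Mrps30 (−0.16 and −0.13), Mrpl53 (−0.12 and −0.12), Mrps35 (−0.32 and −0.11), Mrpl3 (−0.13 and −0.09) and Mrps31 (−0.10 and −0.06) were next.

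**Figure D5:**
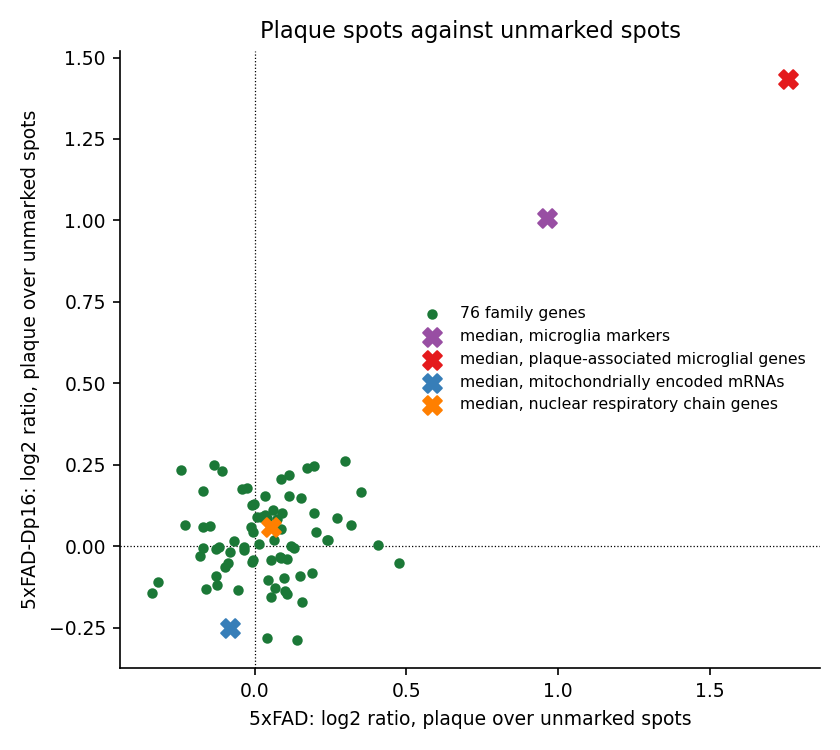
Relative log2 ratio of plaque over unmarked spots in 5xFAD (horizontal axis) and 5xFAD-Dp16 (vertical axis) for each of the 76 genes (green points), with crosses for the medians of 4 other gene lists. The family's points surround 0, and the microglial crosses lie far to the upper right, at 0.96 and 1.01 for the 14 microglial markers.

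In the same spots, 13 of 14 microglial markers were past 0.32 higher in 5xFAD, and 13 of 14 in 5xFAD-Dp16. The sum of the 14 was 2118 CPM in plaque and 905 in unmarked spots of 5xFAD and 1996 and 910 in 5xFAD-Dp16. Mitochondrial mRNAs had medians of −0.08 and −0.25, and nuclear respiratory chain genes 0.05 and 0.06. Plaque spots had a median of 9974.5 UMIs against 8662.5 in 5xFAD and 10654 against 10856.5 in 5xFAD-Dp16. Choroid plexus markers were at −1.07 and −0.64 and meningeal markers at −0.99 and −1.02, and the part of these and of microglia in the family's values was not tested. Among spots that neighbour plaques, the family's medians were 0.02 and −0.01.

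By region, plaque over unmarked, the family's summed CPM differed in the same direction beyond counting error in both sections in the Thalamus and Cortex CTXsp. In the Thalamus it was 7013 CPM in plaque spots and 6310 in unmarked spots of 5xFAD, and 7209 and 6778 in 5xFAD-Dp16, or log2 ratios of 0.15 and 0.09. In Cortex CTXsp it was lower in plaque spots, at −0.14 and −0.07, on 12 and 25 plaque spots. In Cortex OLF the signs were opposite, at −0.11 and 0.08. In a single section, Cortex RSP, IL of 5xFAD differed beyond counting error, at 0.17. So did Cortex AUC (0.15), the Hippocampus (0.12) and the Hypothalamus (−0.08) of 5xFAD-Dp16. These regional ratios are of plain CPM, not relative to the typical gene. Mitochondrial mRNAs were 13.8% of plaque and 14.7% of unmarked UMIs in 5xFAD, weighted by region. In 5xFAD-Dp16 they were 13.3 and 15.1%, and their part was not tested. Spots of a section are not replicates, and no region's difference was tested over mice.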

How the data were processed

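Visium UMI counts per gene and spot, and a table of spot annotations (section, region, plaque and neighbour marks), were used as the authors deposited them. The submitters' processing notes name Space Ranger, Seurat and mm10; the sources used here do not say how regions or plaques were marked, and give no tool versions. The deposited mitochondrial percentage of each spot, which the authors computed per the file headers, was read only as a check. No spot was removed and no doublet caller was run. Samples were matched to spots by the section names in the deposited annotation. Members and gene lists were chosen with earlier results of these data known, and named genes by a rule on abundance, rank and region.

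UMIs were summed per section and divided by the section total (CPM). Relative log2 ratios subtract the median of genes of at least 5 CPM in the mean; a count of 0 was set to 3. Single-gene intervals are exact conditional binomial 95% intervals and sums have exact Poisson ones; the interval of a median over members is binomial. UMI sums per section and region were fitted with edgeR 4.0.16 (TMM, section block) in R 4.3.3; simulated counts served to check the fit. Alternatives were DESeq2 1.42.0, other scalings, filters, folds and sections left out. Promoter windows came from RefSeq, GRCm38.p6.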

Additional observations from a re-analysis of the deposited data

Results flagged for a closer look

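Mrpl19, a large-subunit protein of bacterial type, was the one member whose ratios had opposite signs in the 2 comparisons of the same effect, each beyond counting error. It had 29.7 CPM in the wild-type section and 30.9 with the duplication alone, and 32.2 CPM in 5xFAD against 27.3 with both. Its relative log2 ratio was 0.19 for Dp16 against wild-type (counting interval 0.06 to 0.32) and −0.16 for 5xFAD-Dp16 against 5xFAD (−0.30 to −0.03). Equivalently it was 0.20 with the transgenes alone against wild-type and −0.15 with both against Dp16. The difference between the 2 ratios was −0.35 in either arrangement. With 1 section per genotype the difference was not tested over mice. The share of all genes with such opposite signs was not computed, so whether the case is unusual cannot be said.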

How the results depend on the processing

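The family's median stayed above 0 in the 4 comparisons of sections under each scaling, filter and spot choice tried. It ranged from 0.076 to 0.21 for Dp16 against wild-type, 0.12 to 0.21 for 5xFAD-Dp16 against 5xFAD, 0.026 to 0.12 for 5xFAD against wild-type and 0.031 to 0.10 for 5xFAD-Dp16 against Dp16. In that order, medians were 0.076, 0.12, 0.026 and 0.065 with no centring. They were 0.15, 0.12, 0.069 and 0.031 with totals that leave out mitochondrial, ribosomal protein and haemoglobin genes and Ttr. TMM gave 0.16 for the first and 0.076 for the third, and common region weights 0.062 for the fourth. Mrps16, the 1 member past the log2 ratio of 0.32 in both comparisons of the duplication, lay just past it. TMM, no centring, trimmed totals, region weights, gene filters of 1 or 20 CPM and a fold of 1.5 each left 0 such members, and a fold of 1.1 gave 45. For the duplication, 4 members were below 0 in both with no centring and 1 with trimmed totals. For the transgenes, 8 were below with no centring, 5 with trimmed totals, 4 with region weights and 2 with TMM, with either filter or without VL spots. There 38 were above 0 in both with no centring, and 6 passed a fold of 1.1. Shares of all genes above or below 0 were not computed for these alternatives. Leaving out VL spots and centring on genes in the members' CPM range were chosen after seeing the data. For plaque spots 1 member was higher in both sections with unmatched sums, 5 were higher and 1 lower at a fold of 1.1, and neighbours gave −0.011 in 5xFAD-Dp16. With 1 section left out, calls by region were 78 to 102 higher and 85 to 111 lower, fewest without 5xFAD-Dp16 (78 and 85). They were 77 and 88 without the section block and 109 and 126 with DESeq2. The cause of these changes was not tested. The labels give no replicate numbers that pair sections, and an additive fit of both effects over the 4 sections was not run. Mrps27 in CNU rests on 6 to 17 UMIs per section, and the part of depth in its missing call was not tested.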

Other observations

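Finer labels inside the Hippocampus differed in the family's level. The summed level was 9151 ± 428 CPM in CA1_sp (mean ± SD, n = 4 sections), 8998 ± 338 in CA3_sp and 8531 ± 381 in DG_sp. It was 7863 ± 402 in DG_po, 7182 ± 559 in CA1_so, 6675 ± 222 in CA3_so, 6519 ± 322 in CA3_sr, 5892 ± 363 in CA1_sr, 5783 ± 290 in DG_mo and 5108 ± 484 in CA1_slm. The 3 labels ending in sp, in each section, lay above every label ending in so, sr, mo or slm. Mitochondrial mRNAs ran the other way, from 4.05 to 6.89% of UMIs in CA1_sp to 25.8 to 35.9% in CA1_slm. With mitochondrial mRNAs taken out of the total the family was at 9199 to 10079 CPM in CA1_sp and 7118 to 7801 in CA1_slm, so the gap narrowed but did not close. The order by label then no longer held in every section: in Dp16, CA1_so was at 9616 CPM and DG_sp at 9331. CA1_sp spots held a median of 19292.5 to 26454 UMIs and CA1_slm spots 5952 to 9237, and the part of depth in the gap was not tested.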
